A study of Homo sapiens with 4 samples.

Results

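U87MG, an established human glioblastoma cell line, was profiled by RNA-seq, and the genes examined were 88 of the 22578 genes in the count table, those that carry synaptic, neurotransmitter receptor and neural lineage functions. They were taken by symbol: synaptotagmins, synapsins, syntaxins, VAMPs, neurexins, neuroligins, ionotropic and metabotropic glutamate receptors, GABA receptors and nicotinic receptors, together with *SNAP25* and the lineage and cytoskeletal genes *MAP2*, *MAPT*, *DCX*, *TUBB3*, *NES*, *GFAP*, *NCAM1*, *OLIG2* and *ENC1*. The 88 table entries have 87 distinct symbols, because *TUBB3* has 2 entries. A current annotation holds 124 protein-coding symbols of these families, and 37 of them, among them *S100B*, *STMN2*, *GRIN1* and *SYT4*, were not analysed here. Of the 88 entries, 87 had enough counts to be tested, and *GRIK4* (8 and 10 counts in shKDM2B, 3 and 5 in shControl) did not.

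The shKDM2B cells carried a short hairpin RNA against *KDM2B*, which encodes an H3K36 demethylase, and the shControl cells a hairpin against firefly luciferase. Both kinds of cell were at passage 8, received their hairpin by retroviral transduction on day 1, were selected with puromycin at 1 µg/ml and were harvested on day 9. Each group had 2 libraries of polyadenylated RNA, and the sources used here do not say which *KDM2B* hairpin was in which library. The replicates are called biological, but their origin is not described, so each p-value reflects only how far these libraries spread, and that spread may be technical. Depth was 33330886 and 33770421 counts in shKDM2B and 30470803 and 31433165 in shControl, and the 88 entries took 94337 to 94556 counts of each shKDM2B library and 84725 to 87085 of each shControl library. *KDM2B* itself (chromosome 12, 121866899 to 122018928, reverse strand, GRCh37) had 520 and 465 counts in shKDM2B, against 1257 and 1253 in shControl (log2 fold change -1.60, SE 0.06, adjusted p = 3.33e-19 by edgeR's quasi-likelihood test).

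At a chemical synapse, the axon terminal releases transmitter when calcium binds a synaptotagmin on a docked vesicle and the SNARE proteins, a vesicle VAMP with a syntaxin and SNAP25 on the plasma membrane, fuse the membranes. Glutamate opens AMPA, kainate and NMDA channels on the receiving cell and acts more slowly through metabotropic receptors, GABA opens inhibitory chloride channels, and neurexins bind neuroligins across the cleft. Astrocytes and glial tumors transcribe part of this set, and many neuronal genes are held silent outside neurons by the repressor REST. KDM2B binds DNA through a CxxC domain that recognizes unmethylated CG dinucleotides, which cluster at CpG islands.

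Promoter sequences, 250 bases before to 50 bases after the RefSeq start on GRCh38.p14, were found for 66 of the 87 symbols. They are shown because KDM2B recognizes CG dinucleotides. For the genes that rose, the 14 promoters found had a median of 25.5 CG dinucleotides (range 5 to 44), for the 49 genes not called the median was 22, and the promoter of *SYT3*, which fell, had 27. That of *SYN1* had 46, but the counts listed for *SYN1* cannot be told apart from those of *TIMP1*, a gene inside it. Over all 27305 promoters of the same length the median was 14. The promoters of the neuronal microtubule gene *MAP2*, of *GRIK2* and *GRIK5*, which encode kainate receptor subunits, and of *SYT3* are printed 5′ to 3′ with each CG in capitals. Whether CG content has a part in the responses was not tested.
MAP2, chr2:209661246-209661545, forward strand, 5 CG: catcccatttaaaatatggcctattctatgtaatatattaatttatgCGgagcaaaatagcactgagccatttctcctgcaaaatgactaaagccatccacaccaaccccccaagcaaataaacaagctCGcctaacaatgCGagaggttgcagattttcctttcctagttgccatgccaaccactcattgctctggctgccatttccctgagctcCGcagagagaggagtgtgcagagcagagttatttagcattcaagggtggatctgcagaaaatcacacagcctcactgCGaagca
GRIK2, chr6:101393458-101393757, forward strand, 33 CG: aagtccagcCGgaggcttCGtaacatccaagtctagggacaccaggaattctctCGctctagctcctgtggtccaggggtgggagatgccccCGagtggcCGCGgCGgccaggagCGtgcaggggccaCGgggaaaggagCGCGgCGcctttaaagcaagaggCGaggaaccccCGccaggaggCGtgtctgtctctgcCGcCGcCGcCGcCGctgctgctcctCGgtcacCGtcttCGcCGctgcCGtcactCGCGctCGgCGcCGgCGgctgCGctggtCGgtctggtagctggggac
GRIK5, chr19:42070157-42070456, reverse strand, 12 CG: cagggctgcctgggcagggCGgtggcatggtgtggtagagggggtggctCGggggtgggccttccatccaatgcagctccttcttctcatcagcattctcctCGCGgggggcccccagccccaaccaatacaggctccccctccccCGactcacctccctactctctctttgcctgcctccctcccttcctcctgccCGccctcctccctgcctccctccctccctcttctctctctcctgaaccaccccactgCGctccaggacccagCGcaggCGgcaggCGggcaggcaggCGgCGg
SYT3, chr19:50658056-50658355, reverse strand, 27 CG: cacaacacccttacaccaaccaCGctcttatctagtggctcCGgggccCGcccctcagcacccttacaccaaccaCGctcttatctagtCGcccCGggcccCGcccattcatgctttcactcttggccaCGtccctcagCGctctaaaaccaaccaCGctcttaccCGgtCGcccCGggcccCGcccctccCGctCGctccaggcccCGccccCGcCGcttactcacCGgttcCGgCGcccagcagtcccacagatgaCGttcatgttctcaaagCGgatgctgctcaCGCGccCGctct

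One side of the element bound by REST contains TTCAGCACC. Searched on both strands, these 9 letters occurred in 110 of the 27305 promoters (0.403%) and in 1 of the 66 promoters examined, that of *SYN1*, where they are in capitals. A match is a description of the letters and not a bound site.
SYN1, chrX:47619808-47620107, reverse strand, 46 CG: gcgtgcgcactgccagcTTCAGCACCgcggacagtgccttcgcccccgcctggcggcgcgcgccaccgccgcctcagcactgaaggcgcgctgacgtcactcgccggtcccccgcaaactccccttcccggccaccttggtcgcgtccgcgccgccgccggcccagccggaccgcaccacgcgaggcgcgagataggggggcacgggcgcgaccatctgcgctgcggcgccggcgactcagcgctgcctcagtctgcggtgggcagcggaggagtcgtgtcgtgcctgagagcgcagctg

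In shKDM2B cells, 20 of the 87 genes tested were higher (23.0%) and 5 were lower (5.75%) by the study's thresholds, an adjusted p no larger than 0.05 together with a change of 1.5-fold or more. Over all 21783 genes tested, 13.3% were higher and 6.79% lower, so the share that rose was above that of the table and the share that fell was close to it. By the adjusted p alone, 37.9% of the synaptic and neural genes were higher and 21.8% lower, against 28.4% and 29.5% of all genes. The median log2 fold change was 0.16, beside 0.01 for all genes tested. In bulk RNA, fewer cells that express a gene and less of its RNA per cell cannot be told apart. The scaled counts of the shKDM2B and shControl libraries did not overlap in 65 of the 87 genes, among them all 25 called. The thresholds favor such genes, so this adds no support to the calls. The share over all genes was not taken. Raw count depends on gene length as well as level. Of the 20 genes with a mean of at least 1000 counts in both groups, only *SYN1* and *SYN2* were called. Of the 26 tested genes with a mean under 50 counts in both groups, 6 were called. Shares over all genes in these count ranges were not taken, so neither count is read as particular to this set. Without 1 of the 4 libraries, *MAPT*, *SYT16*, *SYT2*, *GABRR2* and *NCAM1* each lost their call at least once. In all, 16 of the 20 that rose and 3 of the 5 that fell kept theirs whichever library was left out. The scaling assumes that most genes do not change. Centred on 82 cytosolic ribosomal protein genes, the median of all genes moved to 0.36, and 34 of the genes were higher and 2 lower in place of 20 and 5.

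**Figure D1:**
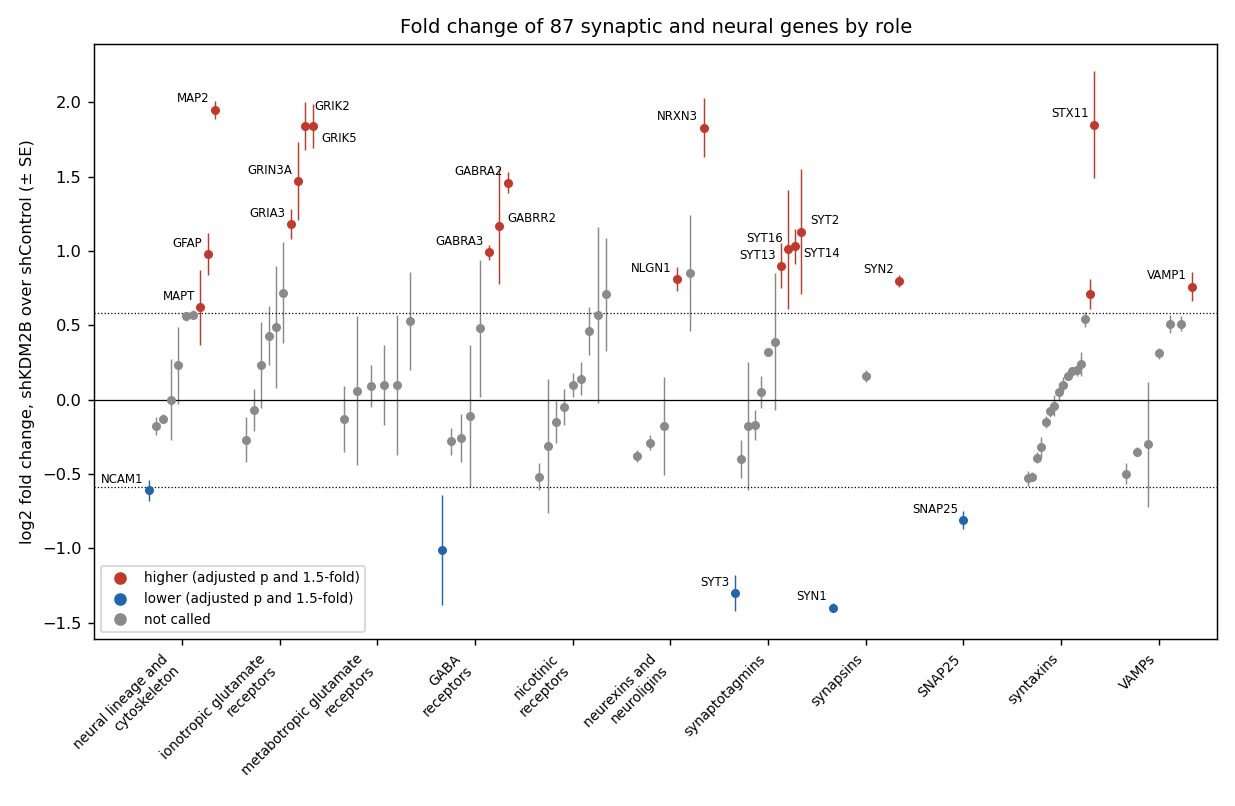
Log2 fold change of shKDM2B over shControl (vertical axis) for the 87 genes tested, grouped by role along the horizontal axis, with the standard error as bars. Red points are the 20 genes called higher, blue points the 5 called lower and gray points the 62 not called, and dotted lines mark a 1.5-fold change. MAP2, at 1.95, stands highest and SYN1, at -1.40, lowest, while no nicotinic or metabotropic glutamate receptor was called. The SYN1 value cannot be told apart from that of TIMP1, a gene inside it.

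Reads were counted without a stated strand setting, so the position of each gene decides what its count can mean. Genes lying wholly in the introns of another had counts that the host's count almost always covered. Among 105 such pairs in the table, in which the inner gene had at least 1000 counts in each library and shared no exonic base with its host, the host had at least 0.9 times the inner gene's count in every library in 94 (89.5%). The next gene along the chromosome reached that level in 14 (13.3%). Of the 20 genes that rose, 12 overlap no other gene of the table (among them *MAP2*, *MAPT*, *GRIK2*, *GRIA3*, *GRIN3A*, *GABRR2*, *NLGN1*, *SYT13*, *SYT14*, *SYT16* and *STX11*), and of the 5 that fell, 2 overlap none, among them *SYT3*. Among the 72 entries that share under 10% of their exonic bases with another gene, 71 were tested, of which 16 were higher and 4 lower. Of all genes tested, whatever their overlap, 13.3% were higher and 6.79% lower.

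Among the lineage and cytoskeletal genes, 3 of 10 entries rose, 1 fell and 6 were not called. *MAP2*, which encodes the microtubule-associated protein of dendrites, had 1530 and 1558 counts in shKDM2B libraries, against 323 and 350 in shControl libraries. Both shKDM2B libraries lay far above both shControl libraries, and the log2 fold change of 1.95 (SE 0.06, adjusted p = 8.61e-21) was the largest of the 87 genes tested. *MAPT*, which encodes the axonal microtubule protein tau, rose at a low level, with 44 and 40 counts in shKDM2B and 23 and 23 in shControl (log2 fold change 0.62, SE 0.25, adjusted p = 0.0359). *GFAP*, the intermediate filament gene that defines astrocytes, had 168 and 172 counts in shKDM2B, against 77 and 68 in shControl (log2 fold change 0.98, SE 0.14, adjusted p = 6.98e-07). *GFAP* shares 19.9% of its exonic bases with the opposite-strand gene *CCDC103*, which had 897 and 936 counts in shKDM2B and 515 and 472 in shControl. *FAM187A*, inside the annotated span, had 885 and 933 in shKDM2B and 513 and 462 in shControl. The part of such reads in the *GFAP* counts was not tested. *NCAM1*, which encodes a neural cell adhesion molecule, fell, with 524 and 471 counts in shKDM2B and 653 and 623 in shControl (log2 fold change -0.61, SE 0.07, adjusted p = 2.41e-08), a change just past 1.5-fold.

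*TUBB3*, the neuronal beta-tubulin gene and an abundant one in these cells, stood just short of the fold threshold. Its main entry had 7388 and 7380 counts in shKDM2B and 4154 and 4249 in shControl (log2 fold change 0.57, SE 0.03, adjusted p = 1.32e-14), and the second entry, which shares its reads and those of *MC1R*, gave 0.56. Neither entry overlapped between groups, yet neither reached 1.5-fold. *NES*, the progenitor filament gene nestin, had 817 and 897 counts in shKDM2B and 824 and 815 in shControl (log2 fold change -0.18, adjusted p = 0.00809). *ENC1*, which encodes an actin-binding protein of the developing nervous system, had 4794 and 4776 counts in shKDM2B and 4496 and 4319 in shControl (log2 fold change -0.13, adjusted p = 0.0011). The sign of both turned under ribosomal centring, to 0.16 for *NES* and 0.22 for *ENC1*. *DCX*, which marks migrating young neurons, had 32 and 39 counts in shKDM2B and 24 and 27 in shControl, and *OLIG2*, a transcription factor of the oligodendrocyte lineage, had 35 and 28 in shKDM2B and 24 and 29 in shControl. The groups overlapped for both once scaled, and neither passed the test.

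Ionotropic glutamate receptor genes held the largest share of risers among the role groups of more than 3 genes, by a narrow margin. The share was 40.0%, beside 37.5% of GABA receptor genes, 36.4% of synaptotagmin genes and 13.3% of all genes. Of 10 ionotropic genes tested, 4 rose and none fell by edgeR or DESeq2 (6 higher and 0 lower at an unadjusted p under 0.05). Their median log2 fold change was 0.60, and the 4 were spread over the AMPA (1 of 3), kainate (2 of 3) and NMDA (1 of 4) families. *GRIK5*, which encodes a high-affinity kainate subunit that works only with a partner such as GRIK2, had 201 and 209 counts in shKDM2B and 46 and 50 in shControl (log2 fold change 1.84, SE 0.15, adjusted p = 1.51e-11). *GRIK2* itself had 207 and 188 counts in shKDM2B and 54 and 39 in shControl (log2 fold change 1.84, SE 0.16, adjusted p = 4.92e-11). The genes of this pair thus rose by the same fold. *GRIA3*, which encodes an AMPA receptor subunit, had 459 and 456 counts in shKDM2B and 170 and 170 in shControl (log2 fold change 1.18, SE 0.10, adjusted p = 2.75e-11). *GRIN3A*, which encodes an NMDA subunit that binds glycine and lowers calcium entry, had 51 and 61 counts in shKDM2B and 15 and 19 in shControl (log2 fold change 1.47, SE 0.26, adjusted p = 1.74e-05).

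The remaining ionotropic genes stayed below the thresholds. *GRIN3B* had 112 and 120 counts in shKDM2B and 98 and 107 in shControl, and *GRIK1* had 86 and 85 in shKDM2B and 91 and 83 in shControl. *GRIN2A*, a main NMDA subunit gene of mature neurons, had 64 and 70 counts in shKDM2B and 49 and 35 in shControl (log2 fold change 0.43, adjusted p = 0.0659). *GRIN1*, which encodes the subunit every NMDA receptor needs, was not analysed here. Of the 6 metabotropic receptor genes, none was called by edgeR or by DESeq2, 0 had an unadjusted p under 0.05, and their log2 fold changes lay between -0.13 and 0.53. *GRM6* had 111 and 106 counts in shKDM2B and 84 and 88 in shControl, and *GRM8* had 37 and 42 in shKDM2B and 38 and 35 in shControl.

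**Figure D2:**
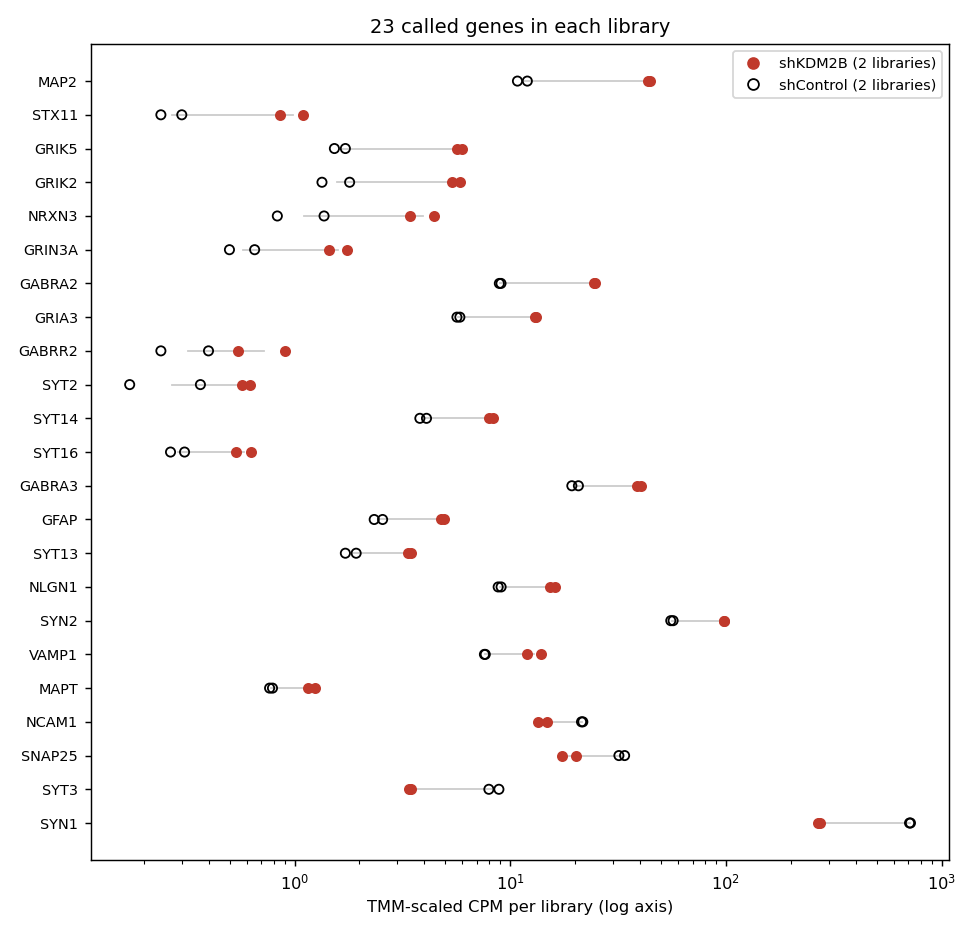
Expression of 23 of the 25 genes called, as CPM (counts scaled to library size) after TMM scaling on a log axis, in each of the 2 shKDM2B libraries (filled red) and the 2 shControl libraries (open black). A gray line joins the group means. The 2 points of a group lie closer to each other than to the other group for abundant genes such as MAP2 and GABRA2, and spread further for genes of few counts such as GABRR2 and SYT2.

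GABA receptor genes moved in both directions. Of 8 tested, 3 rose (37.5%) and 1 fell (12.5%), beside 13.3% and 6.79% of all genes. *GABRA2*, which encodes the alpha2 subunit of the GABA-A receptor, had 867 and 863 counts in shKDM2B and 272 and 259 in shControl (log2 fold change 1.46, SE 0.07, adjusted p = 7.34e-16). *GABRA3*, which encodes the alpha3 subunit, was the most abundant of the group per kilobase of exon, with 1427 and 1352 counts in shKDM2B and 621 and 561 in shControl (log2 fold change 0.99, SE 0.05, adjusted p = 2.59e-15). Its span overlaps an unnamed opposite-strand gene (ENSG00000231937), which had 876 and 904 counts in shKDM2B and 374 and 346 in shControl, and its part in the *GABRA3* counts was not tested. *GABRR2*, which encodes a rho subunit known from the retina, had 32 and 19 counts in shKDM2B and 12 and 7 in shControl (log2 fold change 1.17, SE 0.39, adjusted p = 0.0129).

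The other GABA receptor genes were not called. *GABRG3* had 343 and 366 counts in shKDM2B and 385 and 339 in shControl (log2 fold change -0.28, adjusted p = 0.01, under 1.5-fold), *GABRB1* had 104 and 96 in shKDM2B and 120 and 82 in shControl, and *GABRA6* had 15 and 15 in shKDM2B and 13 and 5 in shControl. Among 9 nicotinic receptor genes tested, 0 were called by edgeR or by DESeq2, and at an unadjusted p under 0.05 there was 1 in each direction. By the adjusted p alone, *CHRNA7* was higher and *CHRNA5* lower. *CHRNA5*, which encodes an accessory subunit, had 318 and 360 counts in shKDM2B and 437 and 382 in shControl (log2 fold change -0.52, SE 0.09, adjusted p = 1.78e-05), and an unnamed opposite-strand gene inside its span had 57.8% of its counts. *CHRNA9*, known from hair cells of the ear, had 457 and 448 counts in shKDM2B and 355 and 358 in shControl, and *CHRNB1*, the muscle beta subunit gene, had 244 and 261 in shKDM2B and 202 and 183 in shControl. After scaling, those differences shrank to log2 fold changes of 0.10 and 0.14.

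Of the adhesion genes that join the sides of a synapse, 2 of 6 rose (33.3%, beside 13.3% of all genes). *NRXN3*, a neurexin gene, had 121 and 154 counts in shKDM2B and 25 and 40 in shControl (log2 fold change 1.83, SE 0.20, adjusted p = 4.65e-09). *NLGN1*, which encodes the neuroligin of excitatory synapses, had 539 and 563 counts in shKDM2B and 264 and 264 in shControl (log2 fold change 0.81, SE 0.08, adjusted p = 2.52e-09). The most abundant members had values in the other direction, short of 1.5-fold. *NLGN2*, the neuroligin gene of inhibitory synapses, had 2058 and 2160 counts in shKDM2B and 2086 and 2246 in shControl (log2 fold change -0.29, adjusted p = 4.00e-06, or 0.06 under ribosomal centring). *NRXN2* had 1408 and 1435 in shKDM2B and 1561 and 1565 in shControl (log2 fold change -0.38, adjusted p = 5.40e-09), with 39.2% of its counts matched by *NRXN2-AS1*, an antisense gene inside it. The Y-linked *NLGN4Y*, of few counts, was not called.

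Of 11 synaptotagmin genes, 4 rose (36.4%) and 1 fell (9.09%), beside 13.3% and 6.79% of all genes. *SYT14* had 280 and 289 counts in shKDM2B and 123 and 111 in shControl (log2 fold change 1.03, SE 0.12, adjusted p = 1.39e-08), and *SYT13* had 119 and 121 in shKDM2B and 58 and 50 in shControl (log2 fold change 0.90, SE 0.15, adjusted p = 1.29e-05). *SYT16* had 19 and 22 counts in shKDM2B and 8 and 9 in shControl (log2 fold change 1.01, adjusted p = 0.0332). These 3 encode family members that do not act as calcium sensors. *SYT2*, which does encode a fast calcium sensor, had 22 and 20 counts in shKDM2B and 11 and 5 in shControl (log2 fold change 1.13, adjusted p = 0.0228), but shares 27.0% of its exonic bases with *PPP1R12B*, which had 1007 and 1027 counts in shKDM2B and 750 and 667 in shControl. *SYT3*, a calcium-binding synaptotagmin that overlaps no other gene, fell, with 122 and 118 counts in shKDM2B and 239 and 258 in shControl (log2 fold change -1.30, SE 0.12, adjusted p = 3.33e-10). Its promoter is the one with 27 CG.

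*SYT11*, which encodes a family member that does not bind calcium, was the most abundant synaptotagmin per kilobase of exon (44.2 CPM, the count scaled to library size, per kb in shKDM2B and 35.4 in shControl). It had 8251 and 7835 counts in shKDM2B and 5501 and 5353 in shControl, and its log2 fold change of 0.32 (adjusted p = 6.20e-10) stayed under the fold threshold. *SYT1*, the main calcium sensor gene of forebrain synapses, had 305 and 284 counts in shKDM2B and 286 and 273 in shControl. *SYT15* had 293 and 267 in shKDM2B and 216 and 240 in shControl, and 99.7% of its exonic bases are shared with other annotated genes.

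The synapsins coat synaptic vesicles and tether them in a reserve pool, and each of the 3 genes holds a tissue inhibitor of metalloproteinases, a *TIMP* gene, on the opposite strand of its introns. *SYN1* (chromosome X, 47431300 to 47479256, reverse strand, GRCh37) was the gene of lowest fold, with 9464 and 9535 counts in shKDM2B and 21535 and 20660 in shControl (log2 fold change -1.40, SE 0.03, adjusted p = 2.62e-25). *TIMP1*, which shares no exonic base with it, had 9637 and 9685 counts in shKDM2B and 22116 and 20643 in shControl (log2 fold change -1.39, SE 0.03, adjusted p = 5.59e-25). The *TIMP1* count was 101.8% and 101.6% of that of *SYN1* in shKDM2B and 102.7% and 99.9% in shControl, so the values listed for *SYN1* cannot be told apart from those of *TIMP1*. *SYN3* had 2015 and 2190 counts in shKDM2B and 1592 and 1573 in shControl, and its inner gene *TIMP3* had 93.1% to 96.2% of that count in shKDM2B and 96.4% to 99.9% in shControl (log2 fold change 0.16 for *SYN3* and 0.11 for *TIMP3*, neither called).

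*SYN2* differed from both. It had 3450 and 3417 counts in shKDM2B and 1709 and 1617 in shControl (log2 fold change 0.80, SE 0.04, adjusted p = 2.83e-16), and the inner *TIMP4* had 1242 and 1209 in shKDM2B and 574 and 576 in shControl (log2 fold change 0.84, SE 0.05, adjusted p = 1.02e-13). *TIMP4* made up 33.6% to 36.0% of the *SYN2* count over the 4 libraries. The counts left after subtracting it were 2208 and 2208 in shKDM2B and 1135 and 1041 in shControl, a fold of 1.71 after scaling, beside 1.74 for the whole count.

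**Figure D3:**
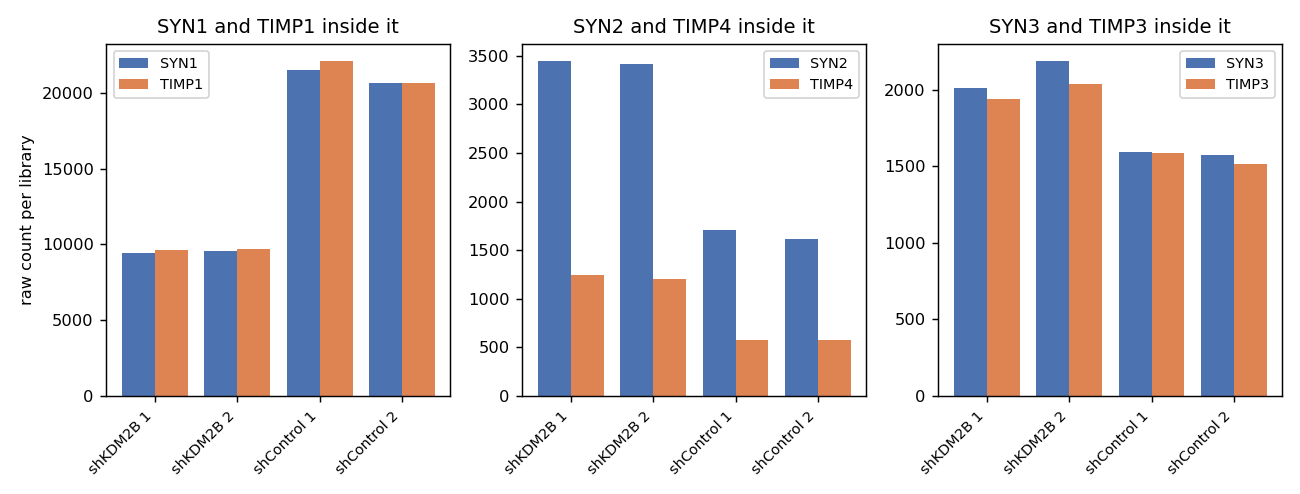
Raw counts per library of each synapsin gene (blue) and of the TIMP gene inside it (orange), with the 2 shKDM2B libraries left of the 2 shControl libraries and each vertical axis starting at 0. The bars of SYN1 and TIMP1, and of SYN3 and TIMP3, have nearly the same height in every library, while TIMP4 reaches 33.6% to 36.0% of SYN2.

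Of the SNARE genes, *SNAP25*, which encodes the plasma membrane SNARE of nerve terminals, fell. It had 616 and 703 counts in shKDM2B and 1018 and 929 in shControl (log2 fold change -0.81, SE 0.06, adjusted p = 7.08e-12). It lies within the span of the opposite-strand gene *SNAP25-AS1*, which had 1147 and 1184 counts in shKDM2B and 1398 and 1257 in shControl. Of 7 VAMP genes, only *VAMP1* rose, a share of 14.3% beside the 13.3% of all genes. *VAMP1*, a synaptobrevin gene of spinal cord and neuromuscular terminals, had 422 and 485 counts in shKDM2B and 230 and 221 in shControl (log2 fold change 0.76, SE 0.10, adjusted p = 1.34e-07). *VAMP1* shares 10.4% of its exonic bases with *TAPBPL*, which had 889 and 985 counts in shKDM2B and 451 and 450 in shControl.

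*VAMP2*, the main synaptobrevin gene of forebrain synapses, had 1354 and 1389 counts in shKDM2B and 808 and 815 in shControl (log2 fold change 0.51, adjusted p = 3.47e-10), short of 1.5-fold. It could not be separated from an unnamed same-strand gene (ENSG00000263620) with 1379 and 1418 counts in shKDM2B and 821 and 838 in shControl. *VAMP3*, which serves recycling endosomes in most cells, had 4587 and 4594 counts in shKDM2B and 5113 and 4739 in shControl (log2 fold change -0.35, adjusted p = 4.77e-10). *VAMP7*, a lysosomal SNARE gene, had 2205 and 2065 in shKDM2B and 1467 and 1437 in shControl (log2 fold change 0.31, adjusted p = 2.14e-07). The abundant VAMP genes thus differed between groups by the adjusted p, in both directions, and by less than 1.5-fold.

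Of 16 syntaxin entries, 2 rose, a share of 12.5% beside the 13.3% of all genes, and 0 fell by edgeR or DESeq2 (5 were lower at an unadjusted p under 0.05). *STX11*, best known from secretion of cytotoxic granules in lymphocytes, had 39 and 30 counts in shKDM2B and 9 and 7 in shControl (log2 fold change 1.85, SE 0.36, adjusted p = 6.93e-05). *STX1A*, which encodes a plasma membrane syntaxin of nerve terminals, had 3841 and 3907 counts in shKDM2B and 4727 and 4637 in shControl and was lower by the adjusted p alone (log2 fold change -0.52, SE 0.03, adjusted p = 1.18e-13). Per kilobase of exon, *STX1A* stood at 29.9 CPM in shKDM2B and 42.9 in shControl. *STX16* had 4562 and 4497 counts in shKDM2B and 3430 and 3422 in shControl (log2 fold change 0.16). Its readthrough entry *STX16-NPEPL1*, with 5063 and 5051 in shKDM2B and 3734 and 3740 in shControl, shares those reads (log2 fold change 0.19). The other syntaxins, which serve the Golgi, endosomes and plasma membrane of all cells, lay between -0.53 (*STX10*) and 0.54 (*STX3*).

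Genes of the same processes outside these families are described by their counts. Over all genes tested, 13.3% rose and 6.79% fell. Of 45 tested partners in vesicle release, 10 rose (22.2%) and 1 fell (2.22%), with a median log2 fold change of 0.13. *RIMS3*, an active zone gene, had 4704 and 4601 counts in shKDM2B and 1655 and 1629 in shControl (log2 fold change 1.25). *RAB3B*, which encodes a vesicle GTPase, was the 1 that fell, with 4706 and 4629 counts in shKDM2B and 7661 and 7402 in shControl (log2 fold change -0.94). *SYNGR2*, a synaptogyrin gene expressed widely outside neurons, rose by 0.72 and *PCLO*, which encodes the active zone scaffold piccolo, by 1.03 on the log2 scale. Of 36 postsynaptic scaffold and adhesion genes, 7 rose (19.4%) and 1 fell (2.78%), with a median of 0.01. *LRRTM3*, whose protein binds neurexins, had 49 and 62 counts in shKDM2B and 4 and 5 in shControl (log2 fold change 3.34), and its relative *LRRTM4* had 294 and 287 in shKDM2B and 48 and 62 in shControl (2.15). *NPTXR*, the neuronal pentraxin receptor gene, rose by 0.65 and *GRIP1*, which encodes an AMPA receptor scaffold, by 0.73.

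Of 14 genes of transmitter synthesis, uptake and removal, 5 rose (35.7%) and 1 fell (7.14%), beside 13.3% and 6.79% of all genes. The median was 0.24. *MAOA*, which encodes a monoamine oxidase, had 778 and 801 counts in shKDM2B and 370 and 324 in shControl (log2 fold change 0.94). *GAD1*, which encodes the enzyme that makes GABA, had 645 and 554 in shKDM2B and 293 and 292 in shControl (0.79). *BCHE*, which encodes butyrylcholinesterase, had 783 and 814 in shKDM2B and 405 and 398 in shControl (0.74). Each of these 3 passed the adjusted p (the largest was 5.57e-09, for *GAD1*).

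Markers of the neural lineages were mixed. Of 17 further neuronal markers tested, 5 rose (29.4%) and 2 fell (11.8%), beside 13.3% and 6.79% of all genes. *STMN3*, a neuronal stathmin gene, had 211 and 230 counts in shKDM2B and 11 and 10 in shControl (log2 fold change 4.13), and *SYP*, the synaptic vesicle gene synaptophysin, had 142 and 159 in shKDM2B and 25 and 26 in shControl (2.31). *GAP43*, the growth cone gene, had 493 and 588 in shKDM2B and 250 and 235 in shControl (0.91). *STMN1*, a stathmin gene that dividing cells also use, fell, with 3247 and 3174 counts in shKDM2B and 7592 and 7086 in shControl (-1.44). The neuronal nuclear marker *RBFOX3* had 11 and 15 counts in shKDM2B and 15 and 13 in shControl.

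Of 11 further astrocyte markers tested, 2 rose (18.2%) and 4 fell (36.4%), with a median of -0.23. Over all genes tested, 13.3% rose and 6.79% fell. *CHI3L1*, a secreted glycoprotein gene of reactive astrocytes, had 11240 and 11642 counts in shKDM2B and 2976 and 2947 in shControl (log2 fold change 1.70). *VIM*, the vimentin gene, fell, with 88536 and 87853 in shKDM2B and 132879 and 130857 in shControl (-0.83), *CD44* fell by 0.74 and *NFIB*, which encodes a transcription factor of glial differentiation, by 1.41 on the log2 scale. *AQP4* and *ALDH1L1* were not analysed here. Set beside the glioblastoma label of U87MG, astrocyte markers differed widely in level. *GFAP* was low, with a mean CPM of 4.84 in shKDM2B and 2.45 in shControl. The part of *CCDC103* and *FAM187A* reads in it was not tested. The astrocytic gap junction gene *GJA1* had 9570 and 9708 counts in shKDM2B and 9350 and 8849 in shControl. *FABP7* (6 and 5 in shKDM2B, 8 and 11 in shControl) and *FGFR3* (10 and 5 in shKDM2B, 2 and 2 in shControl) had too few counts to be tested. Of 6 oligodendrocyte lineage markers, 2 rose (33.3%) and 0 fell. Those that rose were *PDGFRA* (264 and 285 counts in shKDM2B and 67 and 70 in shControl, log2 fold change 1.75) and *MYRF* (32 and 44 in shKDM2B and 20 and 19 in shControl, 0.71). Of 8 neural stem markers, 1 rose (12.5%) and 1 fell (12.5%). The Notch target *HES1* rose, with 263 and 253 counts in shKDM2B and 14 and 12 in shControl (4.05), and *PROM1* fell, with 12 and 7 in shKDM2B and 16 and 21 in shControl (-1.20).

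REST itself had 1115 and 1065 counts in shKDM2B and 1276 and 1191 in shControl, a log2 fold change of -0.43 (adjusted p = 3.89e-09) that stayed under 1.5-fold. Of the 12 genes of its complex, 1 rose (8.33%) and 2 fell (16.7%), beside 13.3% and 6.79% of all genes. *RCOR1*, which encodes the corepressor CoREST, fell, with 731 and 733 counts in shKDM2B and 1383 and 1357 in shControl (-1.15, adjusted p = 8.14e-18). *CTDSPL*, which encodes a phosphatase that acts on REST, fell, with 280 and 279 in shKDM2B and 650 and 592 in shControl (-1.40, adjusted p = 1.02e-14). *RCOR2*, a CoREST relative of neural progenitors, had 15 and 17 counts in shKDM2B and 2 and 1 in shControl, a ratio of 8.99 (exact 95% counting interval 2.81 to 45.9). Whether these differences have a part in those of the synaptic genes was not tested.

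Markers of cell types outside the neural lineages moved too. Of 24 such markers listed, 13 were measured and 12 tested. By edgeR 7 rose (58.3%, beside 13.3% of all genes) and 0 fell (3 were lower at an unadjusted p under 0.05). DESeq2 called 5 higher and 0 lower. The summed counts of the 13 measured were 73744 and 75417 in shKDM2B against 29556 and 29625 in shControl. Most of that sum came from the collagen genes *COL1A2* (39550 and 40395 in shKDM2B, 12118 and 12107 in shControl) and *COL1A1* (23585 and 24169 in shKDM2B, 7231 and 7298 in shControl). *PDGFRB*, a pericyte marker, rose by 0.62, and the epithelial keratin gene *KRT8* by 0.78 on the log2 scale. The leukocyte gene *PTPRC* had 7 and 3 counts in shKDM2B and 3 and 10 in shControl. The macrophage marker *CD68* was abundant, with 7858 and 7891 in shKDM2B and 8402 and 8388 in shControl, and was not called (log2 fold change -0.34). The part of other cells in the synaptic and lineage gene values was not tested.

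**Figure D4:**
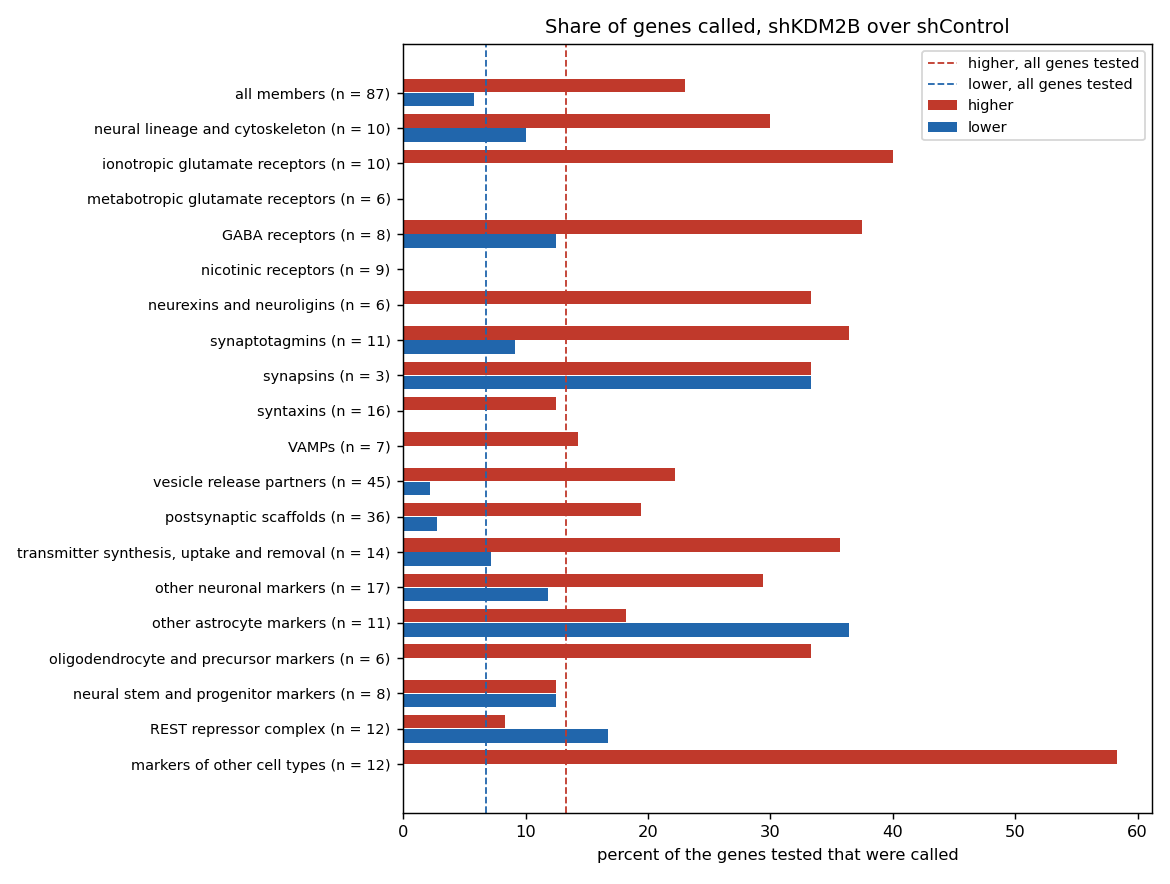
Percent of the genes tested (horizontal axis) that were called higher (red) and lower (blue) in shKDM2B relative to shControl, for the 87 genes, for each role group and for each list of related genes, with the number tested in parentheses. Dashed lines mark the shares over all 21783 genes tested, 13.3% higher and 6.79% lower. The ionotropic glutamate receptors reach 40.0% higher with none lower, near the GABA receptors (37.5%) and the synaptotagmins (36.4%). The syntaxins stay at 12.5%, and the markers of other cell types reach 58.3% higher.

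Per kilobase of merged exons, a scale that reads counted in introns can raise, levels can be set side by side. Leaving aside entries that share most reads with a neighbor, *VAMP3* (47.8 CPM per kb in shKDM2B and 60.9 in shControl), *SYT11*, *VAMP5* (34.2 and 23.9) and *STX1A* stood high on this scale. *MAP2* stood at 3.71 in shKDM2B and 0.962 in shControl, *GRIK5* at 1.02 and 0.284, *GRIA3* at 2.02 and 0.892, and *GABRA2* at 1.46 and 0.531. *MAP2*, *GRIK5*, *GRIA3* and *GABRA2*, all called higher, were thus expressed well below those trafficking genes in both groups.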

How the data were processed

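RNA-seq counts of 2 shKDM2B and 2 shControl libraries were grouped by their labels. Per the labels and the supplement, the authors used CASAVA 1.8.2, aligned 50 bp single-end reads to hg19 with TopHat2 2.0.11 and Bowtie, processed the alignments in SAMtools 0.1.19.0 and obtained counts over Ensembl gene models through GenomicFeatures. The deposited raw count combines the 3 lanes of a library. The authors also deposited normalized values, a signal scaled by DESeq, with group means. Their comparison columns hold a fold change (a ratio of means), its log2 value and p-values, both raw and adjusted, as deposited by the authors. None of these columns was used. The sources used here give no Ensembl release, DESeq version or strand setting.

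Counts were scaled by TMM (factors 1.046 and 1.047 in shKDM2B, 0.9556 and 0.9555 in shControl) and tested in R 4.3.3 by the quasi-likelihood method of edgeR 4.0.16, without covariates, on 21783 genes whose mean count reached 10 in either group. Benjamini-Hochberg adjustment ran over all of them. The common biological coefficient of variation was 2.62%. All p-values in the text are adjusted p-values from this test. Replicates varied beyond counting noise, with a median chi-square of 0.59 between shKDM2B libraries and 0.656 between shControl libraries, against 0.455 from sampling alone. Tables used Python 3.11.15 and pandas 2.3.3, and the counting interval, which covers counting error only, used scipy 1.17.1. Positions, overlaps and exon lengths come from GENCODE on GRCh37, promoters from RefSeq on GRCh38.p14.

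Genes named are *KDM2B*, every synaptic or neural gene called, all lineage genes, up to 3 abundant genes not called per role group and up to 4 called genes of smallest adjusted p per related list. Others were chosen after their values were seen: *CHRNA7*, *NLGN4Y*, *STX3*, *STX10*, *VAMP5*, *GRIK4*, *REST*, *RBFOX3*, *PTPRC*, *CD68*, *GJA1*, *FABP7*, *FGFR3* and the overlapping genes. A few genes that the rule would name are not reported here. The genes and lists were chosen with earlier results of these data known. Alternatives changed the scaling, tool (DESeq2 1.42.0), count filter, thresholds, library left out, replicate block and overlapping genes.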

Additional observations from a re-analysis of the deposited data

How the results depend on the processing

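Of the synaptic and neural genes, 20 were higher and 5 lower. DESeq2 size factors, no count filter, the edgeR exact test and the replicate number as a block each gave the same 20 and 5. DESeq2 gave 16 and 4, and leaving out 1 library gave 18 to 21 and 4 to 6. A mean count of at least 50 gave 16 and 3, Bonferroni adjustment 13 and 4, a fold of at least 2 gave 12 and 3, no fold threshold 33 and 19, and centring on ribosomal protein genes 34 and 2. With under 25% of exonic bases shared and under 25% of counts in inner genes, an alternative chosen after seeing the data, 17 were higher and 4 lower. Over all genes, 2887 were higher and 1478 lower: 2927 and 1482 with the replicate block, 1568 higher with Bonferroni adjustment, 1574 and 458 at a fold of at least 2, 6188 and 6417 with no fold threshold, 6216 and 469 with ribosomal centring, and 2687 to 2784 and 1438 to 1500 with 1 library left out. The replicate numbers were not taken as pairs, since only 2 pairs exist. The correlation of replicate differences was 0.164 over 16708 genes.

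Directions turned only for genes not called. Under ribosomal centring, log2 fold changes became 0.22 for *ENC1*, 0.09 for *GABRB1*, 0.07 for *GABRG3*, 0.07 for *GRIK1*, 0.28 for *GRIN3B*, 0.21 for *GRM8*, 0.16 for *NES*, 0.06 for *NLGN2*, 0.16 for *NLGN4Y* and 0.17 for *SYT1*, since that scaling shifts all genes. *OLIG2* gave -0.0035 with DESeq2 size factors and -0.0053 with DESeq2. With 1 library left out, the range was -0.02 to 1.29 for *GABRA6*, -0.49 to 0.01 for *GABRB1*, -0.16 to 0.02 for *GRIN3B*, -0.76 to 0.22 for *NLGN4Y*, -0.16 to 0.16 for *OLIG2* and -0.05 to 0.15 for *SYT15*. In those fits the lone library of a group was assumed to vary like the other group. Depth limits the genes of under 50 counts, whose standard errors reach 0.59.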
